A study of Mus musculus with 12 samples.

Results

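The nuclear genes for subunits of the mitochondrial respiratory chain and of ATP synthase were followed in mouse kidney. Members were taken by symbol from the deposited count table, as genes named Ndufa, Ndufb, Ndufc, Ndufs or Ndufv with a number, Sdha to Sdhd, Uqcr, Cyc1, Cox4 to Cox8 with a letter from a to c, or Atp5 with a letter from a to o, with pseudogene symbols left out. Of 24062 genes, 81 had such a symbol and 78 of these reached a sum of 120 counts over the 12 libraries. The 3 that did not, Cox7b2, Cox8c and Ndufs5, were at 0 counts in every library. For Ndufs5 a count of 0 does not show that the gene is silent in kidney. How reads that fit several places were counted is not stated. Just above the minimum lay Cox8b with a sum of 255 counts and Cox6a2 with 397. By symbol, 36 members belong to complex I, 4 to complex II, 9 to complex III, 14 to complex IV and 15 to complex V. Ndufa4 was counted with complex I for its symbol, although its protein is now placed in complex IV. The symbol pattern leaves out Cox4i1 and Ndufab1, which are described with the pathway genes, and of the 13 subunits encoded by mitochondrial DNA 0 were in the tables and they are not analysed here.

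RNA-seq was done on kidneys of 12 adult mice of a Pkd1 model, Pkd1 being the gene for polycystin-1, which is mutated in polycystic kidney disease. Mice with Cre (CrePlus) and without Cre (CreMinus) were all induced with tamoxifen at 6 to 8 weeks of age and had 1 kidney removed (UNx) or a sham operation that left both, and the kidney was taken 4 weeks later. There were 3 libraries in each of the 4 groups (UNx CrePlus, UNx CreMinus, sham CrePlus, sham CreMinus), numbered here in accession order. The labels name neither the promoter that drives Cre, nor the Pkd1 allele or its deleted part, nor the strain. All groups thus had tamoxifen in common, and effects of Cre itself and of the loss of Pkd1 cannot be told apart.

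The respiratory chain sits in the inner mitochondrial membrane. Complex I takes electrons from NADH and complex II from succinate, complex III passes them to cytochrome c, and complex IV passes them to oxygen. Complexes I, III and IV pump protons, and complex V, ATP synthase, uses the proton gradient to make ATP. Kidney tubules, above all the proximal tubule and the thick ascending limb, are packed with mitochondria because salt and solute transport consumes much ATP. Several genes of complex IV come in isoforms that are typical of heart and skeletal muscle, brown fat or testis.

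Many of these genes carry short promoter sequences read by NRF1, a transcription factor known for driving respiratory chain genes, or by GABP, a factor of the ETS family once named NRF2. Promoters of 300 bases, from 250 before to 50 after the annotated start, were found for 65 of the 78 members in a RefSeq table for GRCm38.p6. The core of the NRF1 motif, spelled GCGC, any base N and TGCGC, or its reverse complement stood in 15 of 65 windows (23.1%), against 4.78% of all 27025 promoters. They were in 6 of 31 windows of complex I, 2 of 3 of complex II, 1 of 5 of complex III, 1 of 12 of complex IV and 5 of 14 of complex V. The stretches below show them in capitals for 4 genes described further on, an accessory subunit of complex I, the catalytic subunit of complex II, a small subunit of complex IV and a subunit of complex V.
Ndufa11 (chr17:56717667-56717746, plus strand): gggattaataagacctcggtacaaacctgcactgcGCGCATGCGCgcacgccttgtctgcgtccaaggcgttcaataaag
Sdha (chr13:74350294-74350373, minus strand): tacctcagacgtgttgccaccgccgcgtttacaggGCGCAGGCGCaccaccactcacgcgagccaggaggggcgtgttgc
Cox6a1 (chr5:115349076-115349155, minus strand): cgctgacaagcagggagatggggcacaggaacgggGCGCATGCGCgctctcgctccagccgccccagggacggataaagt
Atp5k (chr5:108434405-108434484, minus strand): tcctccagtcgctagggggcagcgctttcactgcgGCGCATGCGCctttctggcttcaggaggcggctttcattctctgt
The letters begin 50 bases before the start of Atp5k, 60 before that of Ndufa11, 98 before that of Sdha and 162 before that of Cox6a1.

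The letters CCGGAAG or their reverse complement, the GABP and ETS core, also stood in 15 of 65 windows (23.1%), against 9.12% of all promoters. They are shown in capitals for an accessory subunit of complex I, where they lie on the other strand, and for Uqcr11, the complex III gene of lowest CPM.
Ndufb6 (chr4:40279612-40279671, minus strand): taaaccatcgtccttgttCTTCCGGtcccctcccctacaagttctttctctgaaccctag
Uqcr11 (chr10:80406846-80406922, minus strand): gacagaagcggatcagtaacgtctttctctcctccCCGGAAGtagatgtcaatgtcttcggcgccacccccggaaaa
The core of the YY1 motif, AAGATGG followed by CGG, was in 4 windows (6.15%, against 0.899% of all promoters). TCAAGGTCA, read by the estrogen-related receptors, was in 2 windows (3.08%, against 0.407%). CCCGCCCC, read by Sp1, was in 18 windows (27.7%, against 16.7%). TATAAA, the TATA box, was less frequent than among all promoters, in 6 windows (9.23%, against 14.2%). Each motif was searched on both strands, none of these letter strings contains another, and a match describes the sequence and not binding. The shares were not tested.

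The total count was between 18914300 and 22480895 for 8 of the libraries and between 41699032 and 42785476 for the other 4. The deep libraries were all 3 of UNx CrePlus and UNx CreMinus replicate 1, so depth and group cannot be told apart for UNx CrePlus. By counts of Xist and Y-linked genes, 7 libraries read as female and 5 as male; the males were UNx CrePlus replicates 1 and 2, UNx CreMinus replicate 1 and replicate 3 of both sham groups. Pkd1 was at 76.8, 60.3 and 57.8 CPM (counts per 1000000 counts of the scaled library size) in sham CreMinus and 49.4, 49.3 and 71.6 in UNx CreMinus kidneys. With Cre it was at 64.1, 46.1 and 45.9 CPM after sham and 45.5, 39.6 and 45.1 CPM after UNx, and since the deleted part is not named these counts do not measure the deletion. Proximal tubule markers were abundant in every library, with a summed level of 15928 to 20111 CPM over 9 of 9 markers. Sham CrePlus replicate 3 stood apart by fat, with brown fat markers (4 of 4 found) summing to 45.3 CPM against 0.45 to 2.13 CPM in the other libraries, and fat markers (6 of 6 found) to 21.5 CPM against 0.14 to 1.29.

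The levels of the members differed far more between genes than between libraries. The 78 genes together took 2.43% to 3.02% of all counts in a library. Levels are compared between genes as CPM per kb of transcript. By this scale Atp5b, which encodes the catalytic beta subunit of ATP synthase, was highest, with a mean of 2142 CPM per kb over 12 libraries. Atp5a1, the alpha subunit of the same catalytic head, followed at 1164, and Atp5g3, a gene for the proton-carrying c subunit, at 1150. Complex IV had Cox8a at 986 and Cox6a1 at 940, both small subunits in their widely expressed form. The medians per complex were 166 CPM per kb for complex I, 357 for complexes II and III, 333 for complex IV and 442 for complex V. Transcript lengths were medians over coding transcripts, and they are uncertain for genes such as Atp5g1, whose coding transcripts run from 596 to 4715 bases.

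**Figure D1:**
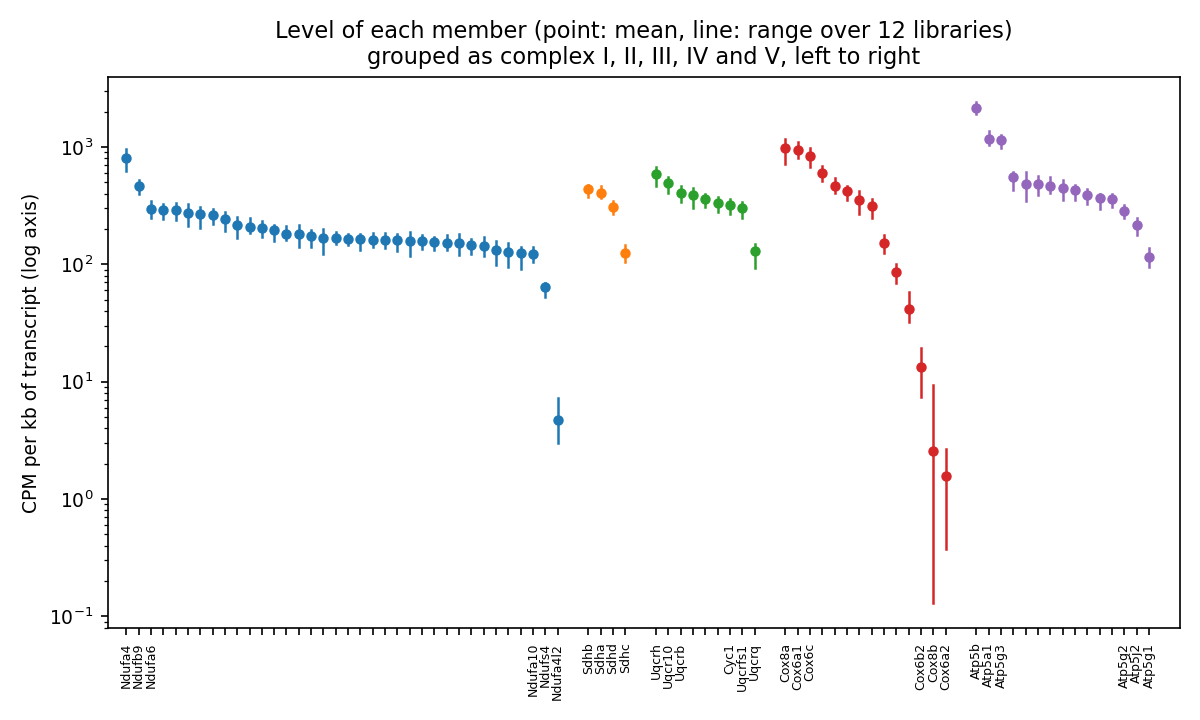
Level of each of the 78 members in CPM per kb of transcript on a log axis, ordered within complexes I to V from left to right, with the 3 highest and 3 lowest genes of each complex named. Points are means and lines the range over 12 libraries; Atp5b is highest at 2142, while Ndufa4l2, Cox6b2, Cox8b and Cox6a2 are the lowest genes and show the widest lines.

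On the CPM scale itself, the leading genes of each complex varied between libraries to different degrees. In complex I, Ndufa4 averaged 493 CPM, and Ndufa4l2 was lowest at 4.43. In complex II, Sdha, the flavoprotein that oxidises succinate, averaged 1179 CPM and the iron-sulfur subunit Sdhb 496, with the membrane anchor Sdhd lowest at 377. In complex III the core proteins Uqcrc2 and Uqcrc1 averaged 627 and 590 CPM, and the small subunit Uqcr11 was lowest at 172. In complex IV, Cox8a and Cox6a1 averaged 542 and 537 CPM and Cox8b was lowest at 0.92. In complex V, Atp5b and Atp5a1 averaged 4104 and 2877 CPM and Atp5k, the e subunit at the dimer interface, was lowest at 164. The ratio of the highest to the lowest library was 1.25 for Ndufa11 and Sdha, the smallest of all members. It was 1.56 for Ndufa4, 1.61 for Cox8a and 1.78 for Atp5e, and above 2 for Ndufa4l2 (2.42), Cox6b2 (2.60), Cox6a2 (7.14) and Cox8b (71.9) alone. The within-group SD of log2 CPM had a median of 0.14 over the members and 0.21 over all 14970 genes tested.

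Atp5g1, Atp5g2 and Atp5g3 encode the same mature c subunit of ATP synthase and differ in the part that is cut off on import. Atp5g3 was at 868, 797 and 842 CPM in sham CreMinus, 866, 914 and 847 in UNx CreMinus, 741, 870 and 811 in sham CrePlus and 703, 778 and 875 in UNx CrePlus kidneys. Atp5g1 lay between 252 and 368 CPM and Atp5g2 between 180 and 235 over the 12 libraries, so that Atp5g3 was the highest of the 3 genes in every library, on both scales. The groups overlapped for Atp5g3 in every comparison of 2 groups.

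The members were high or low together from library to library. For each member, the log2 CPM of a library was set against the mean of that gene over 12 libraries, and the median of these differences over the 78 members describes the library. It was lowest in UNx CrePlus replicate 1 (-0.24), where 74 of 78 members lay below their own mean and 46 had their lowest value of all (all genes 9.68%). Sham CrePlus replicate 1 followed (-0.17), with 71 members below their mean and 22 at their lowest (all genes 10.7%). UNx CreMinus replicate 2 was highest (0.16), with 2 members below their mean and 31 at their highest (all genes 5.95%). The other medians were 0.09, -0.01 and 0.03 in sham CreMinus replicates 1 to 3, 0.10 and -0.00 in sham CrePlus replicates 2 and 3, 0.09 and 0.04 in UNx CreMinus replicates 1 and 3, and -0.09 and 0.06 in UNx CrePlus replicates 2 and 3. The pooled SD of this median within groups was 0.11. Low libraries thus occurred in both CrePlus groups, and each of these groups also held a library above 0.

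**Figure D2:**
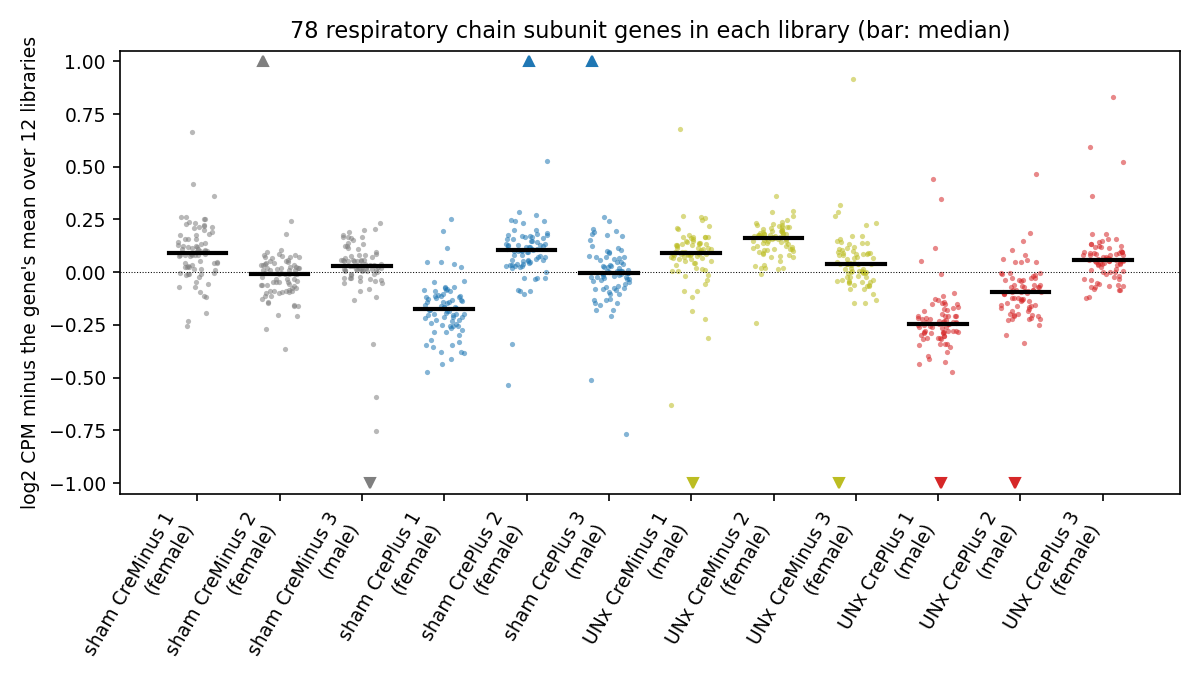
Difference of log2 CPM from the mean of each gene over 12 libraries, with 1 point per member and a bar for the median in each library; colours mark the groups and the sex read from the counts is in brackets. Triangles at 1 and -1 stand for values beyond the axis, all of Cox8b except 1 of Cox6a2 in UNx CreMinus replicate 3; the medians are lowest in UNx CrePlus replicate 1 (-0.24) and sham CrePlus replicate 1 (-0.17).

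The share of all counts taken by the 78 members averaged 2.79% ± 0.105 (SD, n = 3) in sham CreMinus, 2.84% ± 0.171 in UNx CreMinus, 2.65% ± 0.203 in sham CrePlus and 2.60% ± 0.256 in UNx CrePlus kidneys. By library, in the same order of groups, it was 2.90%, 2.78% and 2.69%, then 2.68%, 3.02% and 2.82%, then 2.52%, 2.89% and 2.56%, and last 2.43%, 2.48% and 2.89%. The 4 groups overlapped. In whole-kidney RNA, fewer cells rich in mitochondria and less of these transcripts per cell cannot be told apart.

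Comparisons of groups used the quasi-likelihood test of edgeR on the counts of all 12 libraries, and a gene was called changed at a Benjamini-Hochberg adjusted p under 0.05 over the 14970 genes. The labels give every sample as its own entry, so a p-value reflects only the spread among these libraries. All 78 members were tested, and in each of the 7 comparisons 0 of them were called. DESeq2 also called 0 in every comparison, and the authors' deposited tables for 4 comparisons held 0 members with an adjusted p under 0.05. The values of members given below from fits of all 12 libraries are therefore differences that did not pass. Comparisons that share a group of libraries are not independent, and their values are set side by side only.

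Kidneys with and without Cre after nephrectomy were set against each other to see what differs with Cre in a kidney that works alone. Nearly all members had lower levels in the CrePlus kidneys by a small amount, with 74 of 78 lower, a median log2 fold change of -0.18 and 0 called (all genes 0.14%). Among all genes, 52.2% were lower and the median was -0.01. The member with the largest difference in size was Cox8b at -0.80, with a sum of only 255 counts and groups that overlapped. The medians were alike over the complexes, at -0.19 for complex I, -0.16 for complex II, -0.18 for complex III, -0.21 for complex IV and -0.17 for complex V. All members of complexes II, III and V and 35 of 36 in complex I were lower, and the members with higher values were the isoform genes Cox6a2 (0.41), Cox6b2 (0.35), Cox7a1 (0.16) and Ndufa4l2 (0.26). Without UNx CreMinus replicate 1, Cox6b2 was at 0.09 and Ndufa4l2 at 0.09. Cox6a2 was at 0.25 CPM in UNx CreMinus replicate 3, and at 1.62 and 1.29 CPM in replicates 1 and 2 of that group. In UNx CrePlus kidneys Cox6a2 was at 1.37, 1.13 and 1.81 CPM. For Cox7a1, only UNx CrePlus replicate 3 (23.0 CPM) lay above the UNx CreMinus range of 15.3 to 16.9 CPM. All 3 CrePlus values lay below all 3 CreMinus values for 20 members, 12 of them in complex I and 2 in each other complex, and above for 0. Among all genes 7.47% lay below without overlap and 8.33% above. At an unadjusted p under 0.05 were 10 members, all lower, against 4.53% of all genes that were lower at this level, and DESeq2 had 11.

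**Figure D3:**
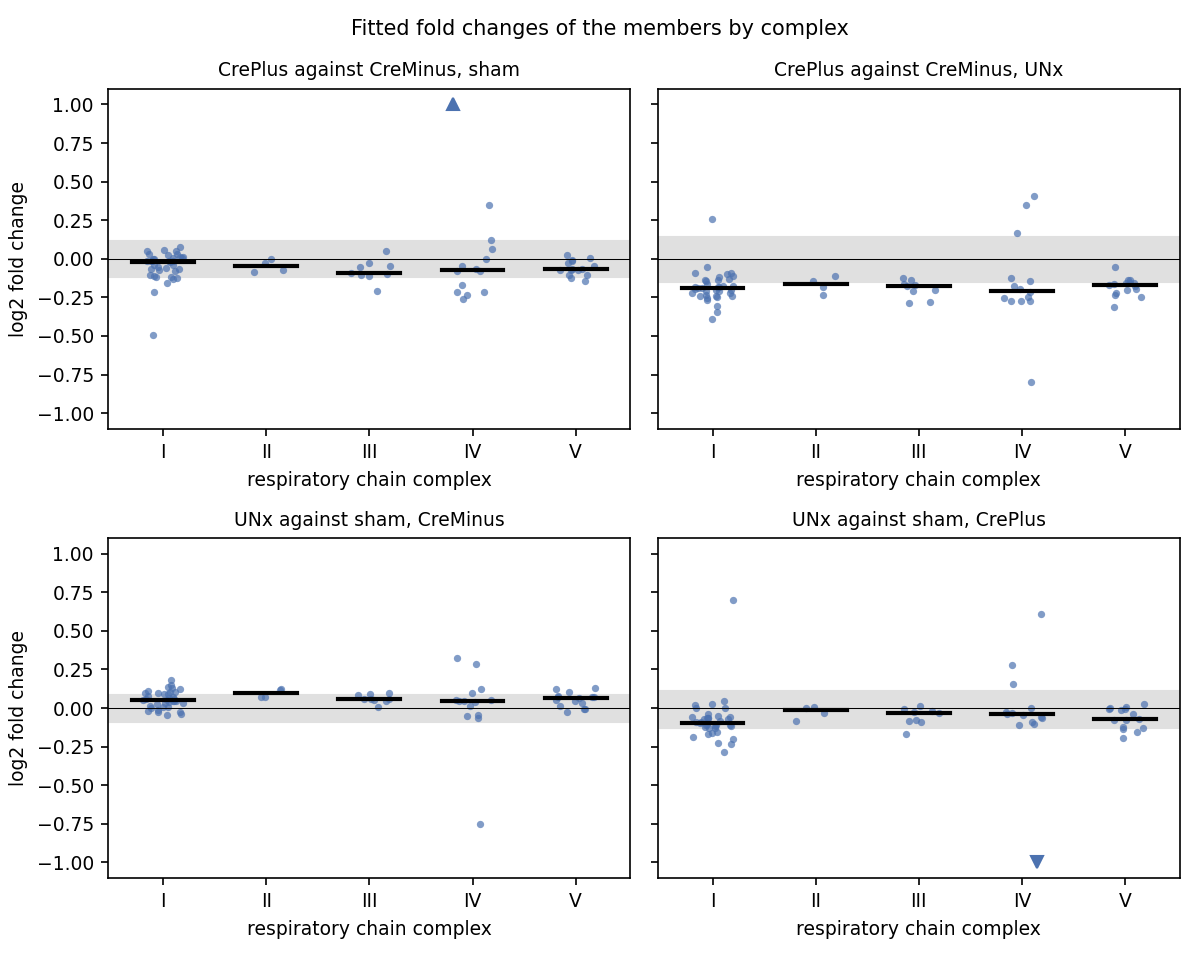
Log2 fold changes of the members by complex in the 4 comparisons of 2 groups, with 1 point per gene, a bar at the median and a grey band for the middle 50% of all tested genes. Triangles stand for Cox8b beyond the axis (1.04 in sham and -2.58 in CrePlus kidneys); after UNx the bars of all 5 complexes lie between -0.21 and -0.16.

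Ndufs7, a core subunit of complex I that holds the iron-sulfur cluster next to the quinone site, had the smallest p of the members in this comparison. It lies on chromosome 10, 80249105 to 80256794 (gene 75406, GRCm38). After UNx it was at 120, 136 and 123 CPM without Cre and at 89.8, 103 and 114 CPM with Cre. All CrePlus values lay below all CreMinus values, and the log2 fold change was -0.31 (SE 0.11, edgeR quasi-likelihood test, adjusted p = 0.382). In sham kidneys it was at 142, 117 and 124 CPM without and at 124, 133 and 117 CPM with Cre, and these groups overlapped. Ndufa5, an accessory subunit of the arm of complex I that takes up NADH (chromosome 6, 24518662 to 24527690), was at 100.8, 113 and 119 CPM in UNx CreMinus and at 73.3, 78.7 and 102 CPM in UNx CrePlus kidneys. Its highest CrePlus value lay above the lowest CreMinus value, and its log2 fold change was -0.39 (SE 0.15, edgeR adjusted p = 0.417).

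Of the other complex I members with no overlap, Ndufb7, Ndufb11 and Ndufa11 are accessory proteins of its membrane arm. Ndufb7 was at 130, 129 and 122 CPM in UNx CreMinus and at 86.8, 98.1 and 116 CPM in UNx CrePlus kidneys (log2 fold change -0.34, edgeR adjusted p = 0.42). Ndufb11, which is X-linked (chromosome X, 20615326 to 20617619), was at 262, 263 and 265 CPM against 195, 221 and 239 CPM (-0.27, edgeR adjusted p = 0.487). Ndufa11 was at 95.1, 99.3 and 89.3 CPM against 79.6, 81.6 and 87.3 CPM (-0.19, edgeR adjusted p = 0.449). In these 3 genes the lowest of the 6 values was that of UNx CrePlus replicate 1, the library that was lowest for most members. Ndufb11 shares bases with Rbm10 in the annotation, and without strand their reads could not be told apart there.

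In complex V, Atp5k was at 178, 192 and 182 CPM in UNx CreMinus and at 131, 145 and 169 CPM in UNx CrePlus kidneys, without overlap (log2 fold change -0.31, edgeR adjusted p = 0.418). In complex IV, Cox7c, a small structural subunit, was at 51.0, 52.5 and 49.96 CPM against 37.4, 41.5 and 47.9 CPM, also without overlap (-0.28, edgeR adjusted p = 0.44). In complex III, Uqcrq, a small subunit bound to cytochrome b, was at 216, 225 and 217 CPM against 162, 191 and 187 CPM (-0.29, edgeR adjusted p = 0.497). Uqcrq shares bases with Gdf9. Of the most abundant members, Atp5b and Sdha differed less between the groups. Atp5b was at 4343, 4633 and 3705 CPM in UNx CreMinus and at 3748, 4085 and 4378 CPM in UNx CrePlus kidneys, and Sdha at 1293, 1335 and 1135 CPM against 1068, 1096 and 1311 CPM, and both overlapped. Cox8a, the highest of complex IV, was at 496, 638 and 604 CPM against 419, 511 and 506 CPM, with overlap.

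**Figure D4:**
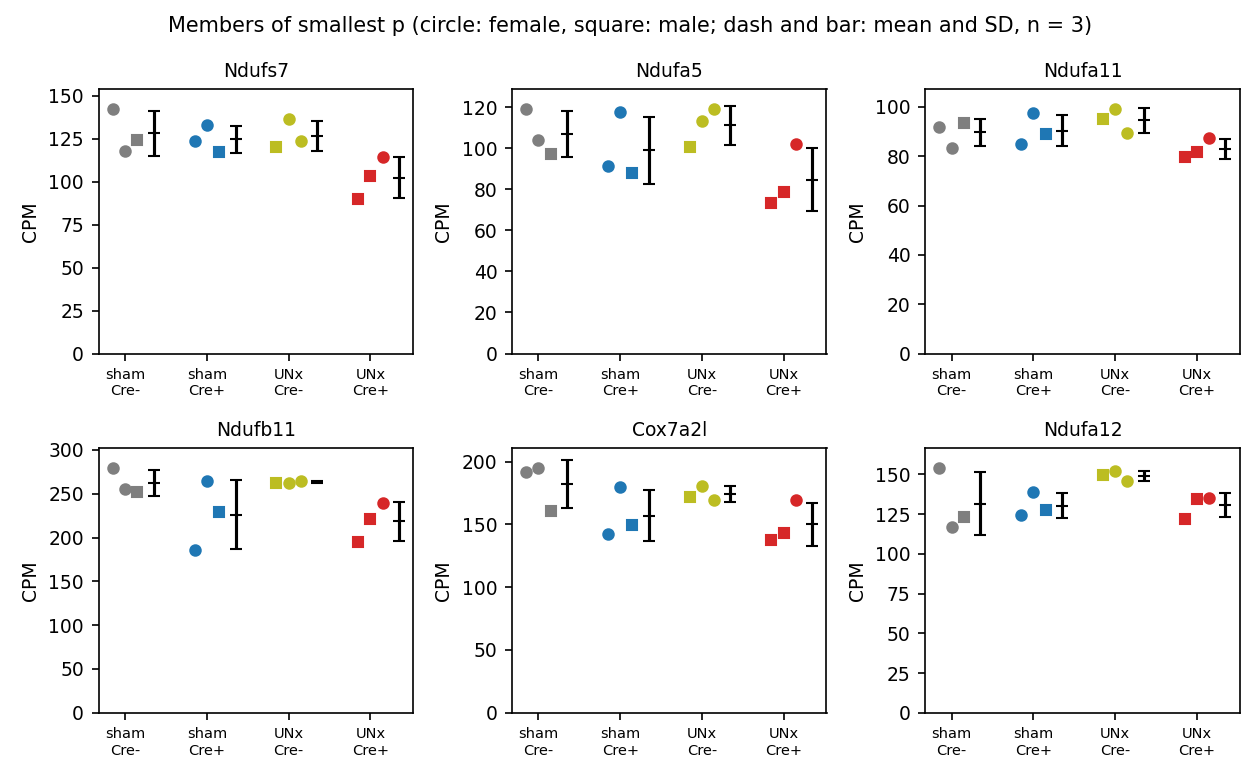
CPM of 6 members named for small p-values, with 1 point per library (circles female, squares male by their counts) and the mean and SD of 3 libraries as dash and bar for each group, from an axis that starts at 0. In UNx kidneys the CrePlus points of Ndufs7, Ndufa11, Ndufb11 and Ndufa12 lie below all CreMinus points, with the female CrePlus library highest or level with the highest in each.

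The size of this difference varied with the libraries taken. Among the female libraries, with 1 of UNx CrePlus, the median log2 fold change of the members was -0.03 with 49 of 78 lower, and among the male libraries, with 1 of UNx CreMinus, it was -0.25 with 76 lower. Without UNx CrePlus replicate 1 the median was -0.12, and 73 to 75 members were lower whichever library was left out. A sex term gave -0.17, and the deep libraries alone, with 1 of UNx CreMinus, gave -0.17. Proximal tubule markers summed to 16183, 15928 and 16624 CPM in UNx CrePlus and to 18035 to 20111 CPM in UNx CreMinus kidneys, without overlap. These markers did not move together. Means were lower in UNx CrePlus for Lrp2, Cubn, Slc27a2, Slc13a3 and Miox. They were higher for Slc5a2 (700 against 656 CPM), Slc22a6 (1028 against 897) and Slc5a12 (668 against 528), and near level for Slc34a1 (6148 against 6201). Loop of Henle and distal tubule markers (8 of 8 found) summed to 7146, 7653 and 10704 CPM against 11456 to 12137 CPM, again without overlap and lowest in replicates 1 and 2. Macrophage markers (7 of 8 found) summed to 218, 241 and 124 CPM against 117 to 134 CPM, and fibroblast markers (6 of 6) to 609, 483 and 242 CPM against 179 to 337 CPM, higher in the same 2 libraries. The part of cell makeup in the lower values of the members was not tested.

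The same was done for sham kidneys, to see what differs with Cre where both kidneys remain. The members lay close to no difference, with 59 of 78 lower, a median log2 fold change of -0.06 and 0 called (all genes 0.0267%). Among all genes 49.6% were lower and the median was 0.00. At an unadjusted p under 0.05 were 0 members by edgeR (all genes 4.05%) and 0 by DESeq2, and the smallest adjusted p was 0.9999. All CrePlus values lay below the CreMinus values for Atp5a1 and Cox5b, and above them for no member (all genes 3.49% and 4.66%). Cox7a2l, which joins complexes III and IV into supercomplexes, had the smallest p. It was at 192, 195 and 161 CPM in sham CreMinus and at 142, 180 and 149 CPM in sham CrePlus kidneys, and the groups overlapped (log2 fold change -0.22, SE 0.12, edgeR adjusted p = 1.0). Ndufb11 was at 280, 256 and 252 CPM against 185, 264 and 229 CPM, where replicate 1 of CrePlus was low and replicate 2 within the CreMinus range (-0.21, SE 0.13; -0.09 without replicate 1). Without sham CrePlus replicate 1 the median of the members was 0.01 with 32 of 78 lower, so the lower values in sham kidneys rested on that library. Its injured tubule markers (6 of 6 found) summed to 3248 CPM and its fibroblast markers to 449 CPM, against 880 to 2122 and 177 to 316 CPM in sham CreMinus kidneys. Sham CrePlus replicate 2, whose median over the members was the highest of the sham libraries (0.10), also lay above the CreMinus range for injured tubule markers, at 2451 CPM, but below it for fibroblast markers, at 154 CPM. The sum did not follow Havcr1, a marker of this list, which was at 74.2, 3.92 and 24.8 CPM in sham CrePlus kidneys. In sham CreMinus kidneys Havcr1 was at 2.17, 1.32 and 12.3 CPM. Sham CrePlus replicate 3 lay above these values, although its injured tubule sum of 750 CPM was the lowest of all libraries. Injured tubule sums about as high as in sham CrePlus replicate 1 stood in UNx CreMinus replicate 2 (3307 CPM) and UNx CrePlus replicate 3 (3255 CPM). The medians over the members there were 0.16, the highest of all libraries, and 0.06. The part of these markers was not tested.

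Averaged over surgery, 74 of 78 members were lower with Cre, at a median log2 fold change of -0.12, and 0 were called (all genes 0.521%, 50.8% lower). At an unadjusted p under 0.05 were 11 members, all lower (all genes lower 5.13%), and DESeq2 had 13. Ndufb11 had the smallest p, with a log2 fold change of -0.24 (SE 0.09, edgeR adjusted p = 0.332), and Cox7a2l followed with -0.21 (SE 0.08, adjusted p = 0.36). Cox7a2l was at 172, 181 and 169 CPM in UNx CreMinus and at 138, 143 and 170 CPM in UNx CrePlus kidneys, where replicate 3 lay within the CreMinus range. The other members at this level were Atp5k, Cox5b, Cox6c, Cox8a, Ndufa5, Ndufa6, Ndufb7, Ndufs7 and Uqcrq. With all 6 CrePlus libraries set against all 6 CreMinus libraries, 0 members were without overlap (all genes 0.882% above and 0.394% below). Members with the NRF1 letters in their promoter had a median of -0.16 in UNx kidneys (15 of 15 lower), and the 50 with a promoter without them had -0.20 (48 lower).

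UNx and sham kidneys were compared to see what differs with the loss of the other kidney. In CreMinus kidneys most members had slightly higher levels after UNx, with 65 of 78 higher, a median log2 fold change of 0.06 and 0 called (all genes 0%). Among all genes 51.4% were higher and the median was 0.00. All 4 members of complex II and all 9 of complex III were higher. The UNx libraries lay above all sham libraries for Ndufb7 and Sdhc and below for no member (all genes 2.67% and 2.19%). Ndufa12, an accessory subunit of complex I, had the smallest p among the higher members, at 154, 117 and 123 CPM in sham and 149, 152 and 146 CPM in UNx kidneys. Sham replicate 1 lay above all UNx values, and the log2 fold change was 0.18 (SE 0.11, edgeR adjusted p = 1.0), or 0.31 without that library. Ndufb6, which carries the ETS letters shown above, was at 113, 102 and 111 CPM against 116, 124 and 109 CPM (0.10), and these groups overlapped. Among the lower members Cox8b (-0.75) and Cox7a2l (-0.07) had the smallest p. At an unadjusted p under 0.05 were 0 members by edgeR (all genes 1.3%) and 0 by DESeq2.

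In CrePlus kidneys 64 of 78 members were lower after UNx, at a median log2 fold change of -0.07 (all genes 53.7% lower, median -0.01), and 0 were called (all genes 0%). At an unadjusted p under 0.05 were 3 members by edgeR (all genes 6.83%) and 3 by DESeq2. Ndufs7 was at 124, 133 and 117 CPM in sham CrePlus kidneys and below all of these after UNx, as given above (log2 fold change -0.28, SE 0.11, edgeR adjusted p = 0.692). Cox8b also lay below without overlap, and Ndufa4l2 and Cox6a2 lay above (all genes 5.05% below and 4.73% above). This median rested on single libraries, since it was 0.00 without sham CrePlus replicate 2 and -0.16 without sham CrePlus replicate 1. Among the female libraries it was 0.10 with 16 of 78 lower, and among the male libraries -0.15 with 73 lower.

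Averaged over Cre status, 43 of 78 members were lower after UNx, with a median of -0.01 (all genes 51.1% lower), and 0 were called (all genes 0%). At an unadjusted p under 0.05 was 1 member, Cox8b, with -1.66 (SE 0.73, edgeR adjusted p = 0.875, all genes 5.66%), and Ndufs7 followed with -0.15. The higher members of smallest p were Ndufa4l2 (0.33) and Cox6a2 (0.47). For the interaction, which asks whether the difference with Cre is the same after UNx as after sham, 73 of 78 members had a negative value and the median was -0.12 (all genes 54.7% negative, median -0.02). The interaction called 0 members and 0 genes in all (all genes 0%), and 0 members had an unadjusted p under 0.05 by edgeR (all genes 1.85%) or DESeq2. A difference between the effects of Cre in UNx and sham kidneys is therefore not shown for any member. Ndufa11 had the smallest p with -0.20 (SE 0.12, edgeR adjusted p = 1.0). It was at 92.0, 83.2 and 93.7 CPM in sham CreMinus and at 84.9, 97.5 and 88.8 CPM in sham CrePlus kidneys, where the groups overlapped, beside the lower UNx CrePlus values given above.

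The 5 isoform genes of muscle, fat, testis and low oxygen had low levels. With Cre after UNx, 4 of them had higher values, but their groups overlapped and the values varied with single libraries. Cox7a1, the heart and muscle form of a complex IV subunit that is also high in brown fat, was the highest of them. It was at 16.9, 16.3 and 12.6 CPM in sham CreMinus, 15.4, 16.9 and 15.3 in UNx CreMinus, 12.8, 19.6 and 15.6 in sham CrePlus and 16.6, 13.7 and 23.0 in UNx CrePlus kidneys, and all groups overlapped. Its log2 fold change with Cre after UNx was 0.16, and averaged over surgery it was 0.0010 without UNx CrePlus replicate 3. Cox6b2, the testis form of another complex IV subunit, was at 5.34, 6.62 and 3.69 CPM in sham CreMinus and at 7.21, 9.09 and 3.66 CPM in sham CrePlus kidneys. It was at 4.04, 7.31 and 7.85 CPM in UNx CreMinus and at 8.00, 6.77 and 9.50 CPM in UNx CrePlus kidneys. The groups overlapped in each comparison, and averaged over surgery the log2 fold change for Cre was 0.35 (SE 0.25, edgeR adjusted p = 0.587). For Cox6b2 this was 0.19 without sham CrePlus replicate 2 and 0.22 without UNx CreMinus replicate 1, and in sham kidneys alone the value of 0.35 was 0.05 without sham CrePlus replicate 2.

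Ndufa4l2 is a gene that low oxygen is known to induce, and its protein can take the place of that of Ndufa4. It was at 6.79, 4.23 and 2.81 CPM in sham CreMinus, 3.42, 5.01 and 5.02 in UNx CreMinus, 3.94, 2.92 and 2.96 in sham CrePlus and 4.61, 5.91 and 5.49 in UNx CrePlus kidneys. In CrePlus kidneys all UNx libraries lay above all sham libraries (log2 fold change 0.70, SE 0.29, edgeR adjusted p = 0.717), while in CreMinus kidneys the groups overlapped. The interaction was 0.75 (SE 0.42, edgeR adjusted p = 1.0) and did not pass, and it was 0.36 without sham CreMinus replicate 1 and 1.01 without sham CreMinus replicate 3. The Ndufa4l2 value for UNx averaged over Cre status, 0.33, was 0.52 and 0.20 without the same libraries. Ndufa4 itself was at 376 to 586 CPM. Ndufa4l2 shares bases with Shmt2, and without strand reads of the shared part could not be told apart.

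Cox6a2 and Cox8b, the heart and muscle forms of complex IV subunits, were the 2 members of lowest level. Cox6a2 was at 0.82, 0.75 and 1.03 CPM in sham CreMinus, 1.62, 1.29 and 0.25 in UNx CreMinus, 1.02, 0.77 and 1.04 in sham CrePlus and 1.37, 1.13 and 1.81 in UNx CrePlus kidneys. The UNx CrePlus libraries lay above all sham CrePlus libraries (log2 fold change 0.61). With a term for depth this value was -0.69, but only UNx CreMinus held both deep and shallow libraries. That term rests mostly on the UNx CreMinus libraries and cannot separate depth from group here. Cox6a2 shares bases with Itgad, a gene of myeloid cells. Cox8b, which is also a gene of brown fat, was at 0.77, 1.93 and 0.05 CPM in sham CreMinus and at 0.68, 1.63 and 3.36 CPM in sham CrePlus kidneys. It was at 0.15, 0.46 and 1.115 CPM in UNx CreMinus and at 0.19, 0.10 and 0.64 CPM in UNx CrePlus kidneys. These are sums of 255 counts over 12 libraries, with 1 count in sham CreMinus replicate 3 and 68 in sham CrePlus replicate 3. The highest Cox8b value was thus in the library with 45.3 CPM of brown fat markers, in which Ucp1, the heat-producing uncoupling protein of brown fat, was at 33.8 CPM against at most 1.31 CPM elsewhere. In other libraries Cox8b did not follow these markers. Their sum was 1.03 CPM in sham CreMinus replicate 2 and 1.39 CPM in sham CrePlus replicate 2, where Cox8b was at 1.93 and 1.63 CPM. In UNx CreMinus replicate 1 the sum was 2.13 CPM and Cox8b was at 0.15 CPM. The part of fat in the Cox8b values was not tested. For UNx against sham in CrePlus kidneys the log2 fold change of Cox8b was -2.58 (SE 1.02, edgeR adjusted p = 0.705), and without sham CrePlus replicate 3 it was -1.87. Cox8b was called in the male libraries alone, an alternative added after the data were examined, in which only UNx CrePlus has more than 1 library. There the log2 fold change with Cre in sham kidneys was 6.03 (edgeR adjusted p = 0.0456), against the library with 1 count, and that of UNx against sham in CrePlus kidneys -4.50 (adjusted p = 0.00441), and both contain the library with fat markers.

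**Figure D5:**
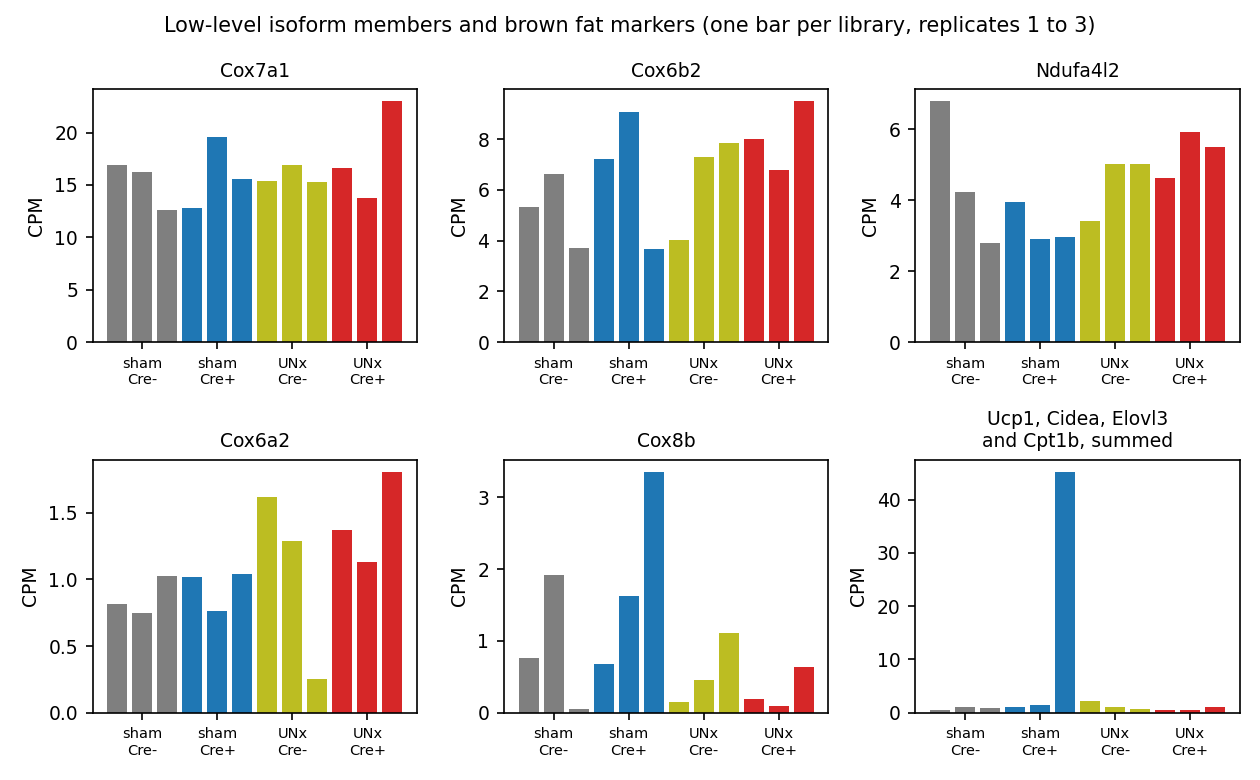
CPM of 5 isoform members in each library, and the summed CPM of the brown fat markers Ucp1, Cidea, Elovl3 and Cpt1b, with 1 bar per library in the order of replicates 1 to 3 and colours by group (Cre- for CreMinus, Cre+ for CrePlus). Cox8b is highest, at 3.36 CPM, in sham CrePlus replicate 3, where the brown fat markers sum to 45.3 CPM, while Cox7a1 is at 15.6 CPM there and within the range of other libraries.

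Genes that build the complexes or feed them were listed with earlier results of these data known, and edgeR called 0 of them in any comparison, while DESeq2, examined for the named genes, called Atpaf1 and Cox20 for Cre averaged over surgery. Of the 7 nuclear subunit or partner genes outside the symbol pattern, 6 were lower with Cre after UNx (median log2 fold change -0.19). Cox4i1, the widely expressed form of the largest nuclear-encoded subunit of complex IV, was at 758, 839 and 754 CPM in UNx CreMinus and at 618, 641 and 808 CPM in UNx CrePlus kidneys, which overlapped (-0.19, edgeR adjusted p = 0.679). Ndufab1, the acyl carrier protein of complex I, was at 123, 140 and 131 CPM against 99.7, 110 and 131 CPM (-0.21, edgeR adjusted p = 0.609). Atpif1, the inhibitor of ATP synthase, was at 239, 264 and 267 CPM against 164, 217 and 217 CPM, without overlap (-0.36, edgeR adjusted p = 0.463). Atp5s, which codes for a factor coupled to ATP synthase, had a log2 fold change of -0.20 for UNx against sham averaged over Cre status (edgeR adjusted p = 0.884).

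Assembly factors followed the subunits in direction. With Cre after UNx, 12 of 13 complex I factors (median -0.13), 9 of 10 tested factors of complexes II, III and V (-0.15) and 17 of 18 complex IV factors (-0.12) were lower, and 4, 4 and 8 of them lay below without overlap (all genes 7.47%). Ndufaf7, a methyltransferase that acts on a complex I subunit, was at 39.6, 40.8 and 38.2 CPM in UNx CreMinus and at 31.1, 32.0 and 34.1 CPM in UNx CrePlus kidneys, with no overlap (-0.29, edgeR adjusted p = 0.339). Cox17, the copper chaperone of complex IV, was at 48.8, 53.4 and 49.0 CPM against 37.0, 39.0 and 44.3 CPM, with no overlap (-0.33, edgeR adjusted p = 0.31).

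Averaged over surgery, Atpaf1, which helps to assemble the catalytic head of ATP synthase, lay without overlap between all 6 CreMinus and all 6 CrePlus libraries. It was at 42.8, 43.6 and 44.2 CPM in sham CreMinus and 33.4, 38.6 and 38.0 in sham CrePlus kidneys, and at 46.3, 46.9 and 43.8 CPM in UNx CreMinus and 40.1, 37.5 and 41.2 in UNx CrePlus kidneys (all genes below without overlap 0.394%). Its value was -0.23 (log2 fold change, SE 0.05, edgeR adjusted p = 0.104), and DESeq2 gave an adjusted p of 0.0223. Cox20, a chaperone of a core subunit of complex IV, was at 46.2, 37.8 and 40.0 CPM in sham CreMinus and 30.6, 35.9 and 33.0 in sham CrePlus kidneys, and at 38.0, 34.0 and 45.1 CPM in UNx CreMinus and 27.2, 29.3 and 31.8 in UNx CrePlus kidneys. The groups did not overlap within either surgery, and only over both did sham CrePlus replicate 2 lie above the lowest UNx CreMinus value (-0.36, SE 0.08, edgeR adjusted p = 0.108, DESeq2 adjusted p = 0.00959). Tmem70, an ATP synthase assembly factor (-0.19, adjusted p = 0.279), and Nubpl, which delivers iron-sulfur clusters to complex I (-0.21, adjusted p = 0.438), were lower by edgeR as well without passing.

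Among citric acid cycle enzymes and regulators both directions occurred. With Cre after UNx, 9 of 13 citric acid cycle enzymes were lower (median -0.05), and after UNx in CreMinus kidneys 12 of 13 were higher (median 0.12). Idh3b, a subunit of isocitrate dehydrogenase, was at 407, 445 and 366 CPM in UNx CreMinus and 324, 361 and 396 CPM in UNx CrePlus kidneys, which overlapped (-0.17, edgeR adjusted p = 0.607). Cs, citrate synthase, often used as a measure of mitochondrial content, had a log2 fold change of 0.12 with Cre averaged over surgery (edgeR adjusted p = 0.525). Of 16 regulators of mitochondrial biogenesis, 7 were lower with Cre after UNx, with a median of 0.00. Ppargc1b, a coactivator of respiratory genes, was at 10.9, 14.4 and 14.6 CPM in UNx CreMinus and 7.46, 9.52 and 11.1 CPM in UNx CrePlus kidneys, and averaged over surgery its value for Cre was -0.41 (log2 fold change, SE 0.13, edgeR adjusted p = 0.233). Esrra, an estrogen-related receptor, was at 139, 160 and 133 CPM in UNx CreMinus and 125, 115 and 127 CPM in UNx CrePlus kidneys, without overlap (-0.23, edgeR adjusted p = 0.422).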

How the data were processed

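Kidney RNA of 12 mice was measured by RNA-seq. Per the labels' protocols, RNA came from a column kit with a DNase step, and SMART-Seq v4 was the library kit, which does not mark strand. Per the submitters' processing notes, the tools were HTSeq, DESeq2, cutadapt 1.11 and FastQC 0.11.5, and the builds mm10 and GRCm38. Which aligner, annotation and strand setting were used is not given in the sources used here. The values deposited by the authors were read counts per gene as whole numbers, and their log2 fold changes, p-values and adjusted p-values, of which only the numbers of adjusted p-values under 0.05 are used. The tables had 24067 rows; 5 repeated symbols were kept once, and the 18 library columns that recurred between the tables used were identical.

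The count analysis used edgeR 4.0.16 in R 4.3.3 (filterByExpr, 14970 genes; TMM factors 0.925 to 1.05; 1 mean per group, 8 residual degrees of freedom; glmQLFit and glmQLFTest). The script was tested on simulated data. CPM use TMM-scaled library sizes; lengths come from coding transcripts matched to RefSeq. SE is the size of the fold change over the square root of F. Of the members, 25 overlap another annotated gene and 14 a protein-coding one. Some subunit genes have near-identical pseudogene copies, and how reads that fit several places were counted is not stated. PCR duplicates were not separated.

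Named were the 2 members of smallest p in each direction of a comparison, the 2 highest and the lowest of each complex (1 of them is not reported here), the isoform and c subunit genes, members at the minimum sum, Cox4i1, Ndufab1 and the 2 genes of smallest p of each pathway list; the other genes in the text were chosen after their values were seen. The members and lists were chosen with earlier results of these data known. Alternatives were DESeq2 1.42.0, other scalings, no filter, sex and depth terms, subsets of libraries and leaving out each library.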

Additional observations from a re-analysis of the deposited data

How the results depend on the processing

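Scaling, filtering, DESeq2, a fit of only the groups compared, and terms for sex or depth left the count of called members at 0 in all 7 comparisons, as did leaving out each library in turn. The exception was the male libraries alone, which called 1 member for Cre in sham kidneys and 1 for UNx in CrePlus kidneys, Cox8b in both. The female libraries alone moved the median log2 fold change of the members to -0.032 for Cre after UNx, 0.10 for UNx in CrePlus kidneys and 0.038 for the interaction. With each library left out, the median ranged from -0.12 to 0.01 for Cre in sham kidneys (highest without sham CrePlus replicate 1), -0.24 to -0.12 for Cre after UNx and -0.15 to -0.09 averaged over surgery (each lowest without UNx CrePlus replicate 3 and highest without replicate 1). It ranged from 0.03 to 0.09 for UNx in CreMinus kidneys, -0.16 to 0.00 in CrePlus kidneys (without sham CrePlus replicates 1 and 2), -0.06 to 0.02 averaged over Cre status and -0.21 to -0.06 for the interaction (each lowest without sham CrePlus replicate 1 and highest without UNx CrePlus replicate 1). Among single genes, the values that reversed were of Cox6a2, Cox6b2, Cox8b and Cox7a2l. Cox8b gave -0.23 for Cre in sham kidneys in females, and for UNx in CreMinus kidneys 1.63 in males, and from -1.66 to 0.40 over the left-out libraries (highest without sham CreMinus replicate 2). Cox6b2 gave -0.037 for Cre in sham kidneys and Cox7a2l 0.086 for UNx in CreMinus kidneys, both in males. Cox6a2 gave -0.69 and -0.77 for UNx in CrePlus kidneys, -0.46 and -0.52 averaged over Cre status, and -0.46 and -0.50 for the interaction with a depth term and with sex and depth terms; the interaction was -0.35 in males and -0.15 to 0.76 over the left-out libraries (lowest without UNx CreMinus replicate 3). Without passing the test with any library left out, Cs for Cre averaged over surgery was 0.06 without UNx CreMinus replicate 3, and without UNx CreMinus replicate 2 Esrra and Idh3b for Cre after UNx were -0.15 and -0.10. The cause of these changes was not tested. Depth limits Cox6a2 and Cox8b most, with sums of 397 and 255 counts. No paired analysis was possible because the labels give no pairing of libraries between groups.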
